A study of Homo sapiens with 4 samples.

Results

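The genes examined here encode the machinery that shortens, decaps, degrades and silences mRNA. They were 41 named genes of deadenylation, decapping, exonucleolytic decay, nonsense-mediated decay and the Argonaute and TNRC6 silencing pathway, out of 19688 protein-coding genes with a canonical coding transcript. Their RIP peaks were those whose summit, the base at which the peak caller placed the maximum, lay in a GENCODE 44 exon of a member. This gave 437 of 44622 peaks in replicate 1 and 411 of 42723 peaks in replicate 2. The members were grouped by function, but the list was drawn up with earlier results of these data known, so its shares are given beside those of all protein-coding genes as descriptions.

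IGF2BP3 is an RNA-binding protein described as a reader of methylated adenosine that stabilizes the mRNAs it binds. RNA immunoprecipitation followed by sequencing (RIP-seq) recovers the RNA that comes down with a protein. The cells were OE-19, a human line derived from a tumor of the esophagogastric junction (AEG, an adenocarcinoma), grown without any treatment named in the labels. The labels give UV fixation before lysis, whereas the RIP method of the study describes none. There were 2 anti-IGF2BP3 RIP samples and 2 input samples without antibody, and only the RIP samples have a peak list used here. The study calls its replicates biological, but no label says that they came from separate cultures, so a spread between them may be technical. Each replicate had its own list, called with the authors' peak caller. A list gives for each peak a fold enrichment, which is the pileup of reads divided by the caller's local background at the summit, and a p and a q, the p corrected for multiple testing. Read depth is unknown, and with 2 replicates of 1 condition no test between groups was possible, so the values are descriptions with the SD over both replicates. mRNA levels were not analysed here, so the amount of an mRNA in the cells and its recovery with IGF2BP3 cannot be told apart, and an mRNA without a peak is not shown to be unbound.

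In the cytoplasm an mRNA is usually lost in steps. Deadenylases of the CCR4-NOT and PAN2-PAN3 complexes shorten the poly(A) tail, the DCP2 enzyme with its activators then removes the cap, and exonucleases degrade the body of the mRNA from either end. Argonaute proteins loaded with a miRNA recruit TNRC6 proteins, which in turn recruit the deadenylases, and nonsense-mediated decay feeds mRNAs with a premature stop codon into the same enzymes.

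Most members had a RIP peak in both replicates. An exonic peak was present in both replicates for 31 of the 41 members (75.6%), whereas 28.1% of all protein-coding genes had one. An overlapping pair of peaks, with at least 1 bp in common between the replicates, was found in 30 members (73.2%, against 23%). A peak in either replicate was found for 37 members (90.2%, against 36.2% of all protein-coding genes). The limit of the lists is lenient, and a q of at most 0.05 in both replicates was reached by 13 members (31.7%, against 4.98%). These were CNOT4, CNOT6, PAN3, DCP1A, PATL1, XRN1, EXOSC10, SMG6, AGO1, AGO2, TNRC6A, TNRC6B and DICER1. A q of at most 0.05 in either replicate was reached by 22 members (53.7%, against 10.3%). With both replicates required to pass at overlapping positions, 7 members remained (17.1%, against 2.51%), namely AGO1, CNOT4, CNOT6, DCP1A, PATL1, TNRC6A and TNRC6B.

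For each of these 7 members, 1 of those overlapping peaks in the coding sequence (CDS) is shown, the one with the highest replicate 1 fold. It is given as the 30 bases of the mRNA around the replicate 1 summit. These are places where both replicates gave a peak of q at most 0.05. CNOT4, PATL1 and TNRC6A had further such places that are not printed, and some were stronger than sites shown for other members. The coordinates are GRCh38 (hg38), the reading is 5′ to 3′ on the mRNA strand, and the capital marks the summit base. AGO1 is shown at chr1:35895228-35895257 (plus strand, exon 8, codon 332 of 857), CNOT4 at chr7:135395701-135395730 (minus strand, exon 9, codon 350 of 713) and PATL1 at chr11:59652877-59652906 (minus strand, exon 10, codon 417 of 770). TNRC6B is shown at chr22:40277078-40277107 (plus strand, exon 8, codon 1053 of 1833) and TNRC6A at chr16:24805104-24805133 (plus strand, exon 14, codon 1364 of 1962). CNOT6 is shown at chr5:180529277-180529306 (plus strand, exon 2), where the window was moved to begin at the start codon and the summit falls in codon 5 of 557. DCP1A is shown at chr3:53347467-53347496 (minus strand, exon 1, codon 13 of 582).
AGO1: caagttggccaggaaCaaaagcatacctac
CNOT4: aaccctatcccaagtGggcttcctcctttc
PATL1: tgggtctctaaaatcCagatgatgcaactg
TNRC6B: gctcactcaaaggagGaaacaatgattcat
CNOT6: atgcccaaagaaaAatacgagccccctgac
TNRC6A: cagcctaatctccgtGctcaagtgcctcct
DCP1A: gggcaggagatgagcCtagcggccctgaag
None of these 7 windows contained GGAC, the core in which adenosine methylation is usually placed, or CACA, a sequence linked with IGF2BP proteins. In wider windows reaching 50 nt to either side of the same summits, 1 contained GGAC, 0 contained TGGAC and 2 contained CACA. Over all mRNA summit windows of that width in replicate 1, the shares were 31.9% for GGAC, 12.9% for TGGAC and 38.8% for CACA. No such share was computed for 30 bases, and 7 windows are too few to tell a lack of these motifs. Since only CDS sites were chosen, all 7 windows lay in coding exons of the canonical mRNA. The fold enrichment at the AGO1 site was 7.41 in replicate 1 and 4.69 in replicate 2, with a q of 6.67e-06 and 0.0285, and the summits were 30 nt apart. At the CNOT4 site it was 6.49 and 5.02 (q of 3.73e-05 and 0.0047), with summits 111 nt apart inside an exon of 250 nt. At the PATL1 site it was 5.75 and 5.39 (q of 0.00406 and 0.0151), and both summits fell on the same base. The weakest of the 7 by mean fold was DCP1A, with 4.82 and 4.43.

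By number of peaks, the 41 members ranged from 0 to 37 in a replicate. The mean over replicates was 424 ± 18.4 peaks (SD, n = 2) for all members together. A median of 10 peaks was found per member with a peak in each replicate, compared with 4 for all protein-coding genes with a peak. Since long mRNAs hold more peaks, the number was also divided by length. Over all members there were 1.69 peaks per kb of summed canonical mRNA in replicate 1 and 1.59 in replicate 2 (1.64 ± 0.0711, SD, n = 2), whereas all protein-coding genes had 0.578 and 0.557. Restricted to genes with a peak, the densities were 1.86 and 1.796 peaks per kb for members and 1.27 and 1.26 for all protein-coding genes. Both gaps were larger than the spread between replicates, but that spread does not measure how sets of genes differ. Across the 41 members, the number of peaks went with mRNA length (Pearson's r = 0.648, Spearman's rho = 0.582) and CDS length (r = 0.635, rho = 0.511). These points share their libraries, and mRNA level was not available as a covariate.

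**Figure D1:**
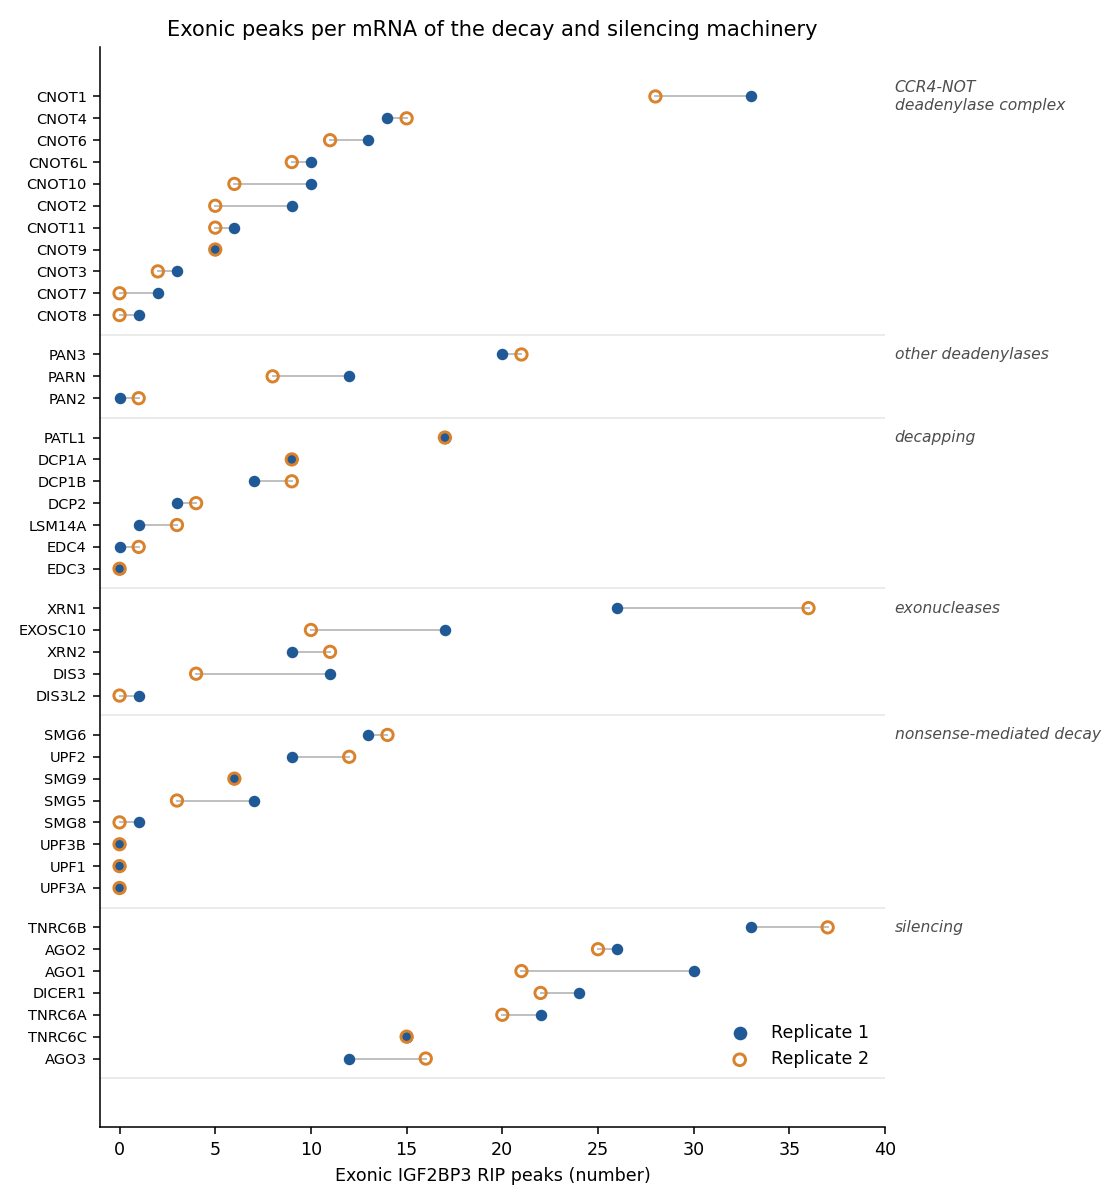
Number of exonic IGF2BP3 RIP peaks (horizontal axis) of each of the 41 members, grouped by role, with replicate 1 as filled and replicate 2 as open circles joined by a line. TNRC6B, with 33 and 37 peaks, XRN1, with 26 and 36, and CNOT1, with 33 and 28, lie farthest right, and UPF1, UPF3A, UPF3B and EDC3 lie at 0 in both.

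The CCR4-NOT complex is the main cytoplasmic deadenylase. Of its 11 members, 9 had a peak in both replicates, against 28.1% of all protein-coding genes. Together the 11 held 106 peaks in replicate 1 and 86 in replicate 2 (1.88 ± 0.277 per kb, SD, n = 2). CNOT1, the scaffold on which the complex assembles, had 33 and 28 peaks, and 25 of its 49 exons held a summit in both replicates. Its highest fold was 5.11 in replicate 1 and 4.52 in replicate 2, and only replicate 1 had peaks of q at most 0.05 in it, 3 in all. Of the CNOT1 peaks, 3 in replicate 1 and 1 in replicate 2 also lay in an exon of the overlapping gene SETD6, and the lists carry no strand to tell them apart.

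CNOT4, a ubiquitin ligase associated with the complex, was the member with the most complete coverage. It had 14 peaks in replicate 1 and 15 in replicate 2, and 100% of them overlapped a peak of the other replicate. A summit was present in 12 of its 12 canonical exons in both replicates, and 2 further summits in each lay in exons of its other transcripts. Among all protein-coding genes of 10 or more exons, 17 of 7955 (0.214%) had a summit in every exon in both replicates, and CNOT4 was the 1 member among 34 of that size. Peaks of q at most 0.05 numbered 9 in replicate 1 and 5 in replicate 2, and all 5 of the latter overlapped one of the former, in exons 1, 4, 5, 8 and 9. Exon 1 holds the 5′ UTR only, and its peak at chr7:135509893-135510052 had a fold of 4.20 in replicate 1 and 5.02 in replicate 2. In exon 4 the folds were 5.71 and 3.93, with summits 3 nt apart. In exon 8, which is 58 nt long, they were 4.88 and 4.07, with summits 9 nt apart.

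The catalytic subunits of CCR4-NOT fall into pairs of paralogues, and the pairs differed in their peaks. CNOT6, a deadenylase of the CCR4 type, had 13 peaks in replicate 1 and 11 in replicate 2, with summits in 10 of 12 exons in both. Its paralogue CNOT6L, also with 12 exons, had 10 and 9 peaks but summits in only 3 exons in both. Of the CNOT6 peaks, 76.9% and 90.9% overlapped a peak of the other replicate, compared with 40% and 55.6% of the CNOT6L peaks. CNOT6L had a peak of q at most 0.05 only in replicate 2, where its highest fold was 5.51, against 3.43 in replicate 1. The other pair, CNOT7 and CNOT8, encodes deadenylases of the CAF1 type and was almost without peaks. CNOT7 had 2 peaks in replicate 1 and 0 in replicate 2, and CNOT8 had 1 and 0. Not 1 of these 3 had a counterpart in the other replicate, and their highest fold was 3.18.

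The remaining subunits had intermediate numbers. CNOT2, which forms a module with CNOT3, had 9 and 5 peaks, and 5 of its 16 exons held a summit in both replicates. CNOT3 had 3 and 2 peaks and was the only member of the 31 with a peak in both replicates in which no peaks overlapped. Its highest folds, 2.52 and 3.14, gave the lowest mean of those 31. CNOT9, which binds TNRC6 proteins, had 5 peaks in each. Its strongest peak was the same one in both replicates, 70 nt past the stop codon in replicate 1 and 67 nt in replicate 2, with folds of 3.24 and 4.44. CNOT10 had 10 and 6 peaks and CNOT11, its partner in the complex, 6 and 5.

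Outside CCR4-NOT, 3 deadenylase genes were listed, with 32 peaks in replicate 1 and 30 in replicate 2 (2.35 ± 0.107 per kb, SD, n = 2). PAN3 and PAN2 encode the subunits of 1 complex, yet their peaks differed widely. PAN3, the regulatory subunit, had 20 and 21 peaks, and 15 of its 19 exons held a summit in both replicates. PAN2, the catalytic subunit, had 0 peaks in replicate 1 and 1 in replicate 2, with a fold of 2.12 and a q of 1. The strongest PAN3 peak was in exon 3 in replicate 1, at chr13:28176477-28176538, with a fold of 6.85 and a q of 1.36e-06. Replicate 2 had a peak at the same exon with a fold of 3.68 and a q of 0.649. The strongest peak of replicate 2 was in exon 10, at chr13:28266724-28266765, with a fold of 6.49 and a q of 0.000129, and replicate 1 had a fold of 4.25 and a q of 0.109 in that exon. Thus both replicates had peaks in the same PAN3 exons, and their ranking by fold was not the same. Of the PAN3 peaks, 100% of replicate 1 and 90.5% of replicate 2 overlapped a peak of the other replicate.

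PARN, a poly(A)-specific ribonuclease, was the opposite case. It had 12 peaks in replicate 1 and 8 in replicate 2, which is 3.26 ± 0.921 per kb (SD, n = 2), but only 16.7% and 25% of them overlapped a peak of the other replicate. A summit in both replicates was found in exons 16 and 17 alone of its 24 exons, although 18 exons held a summit in either. No PARN peak reached a q of 0.05, and its highest folds were 3.69 and 3.33.

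**Figure D2:**
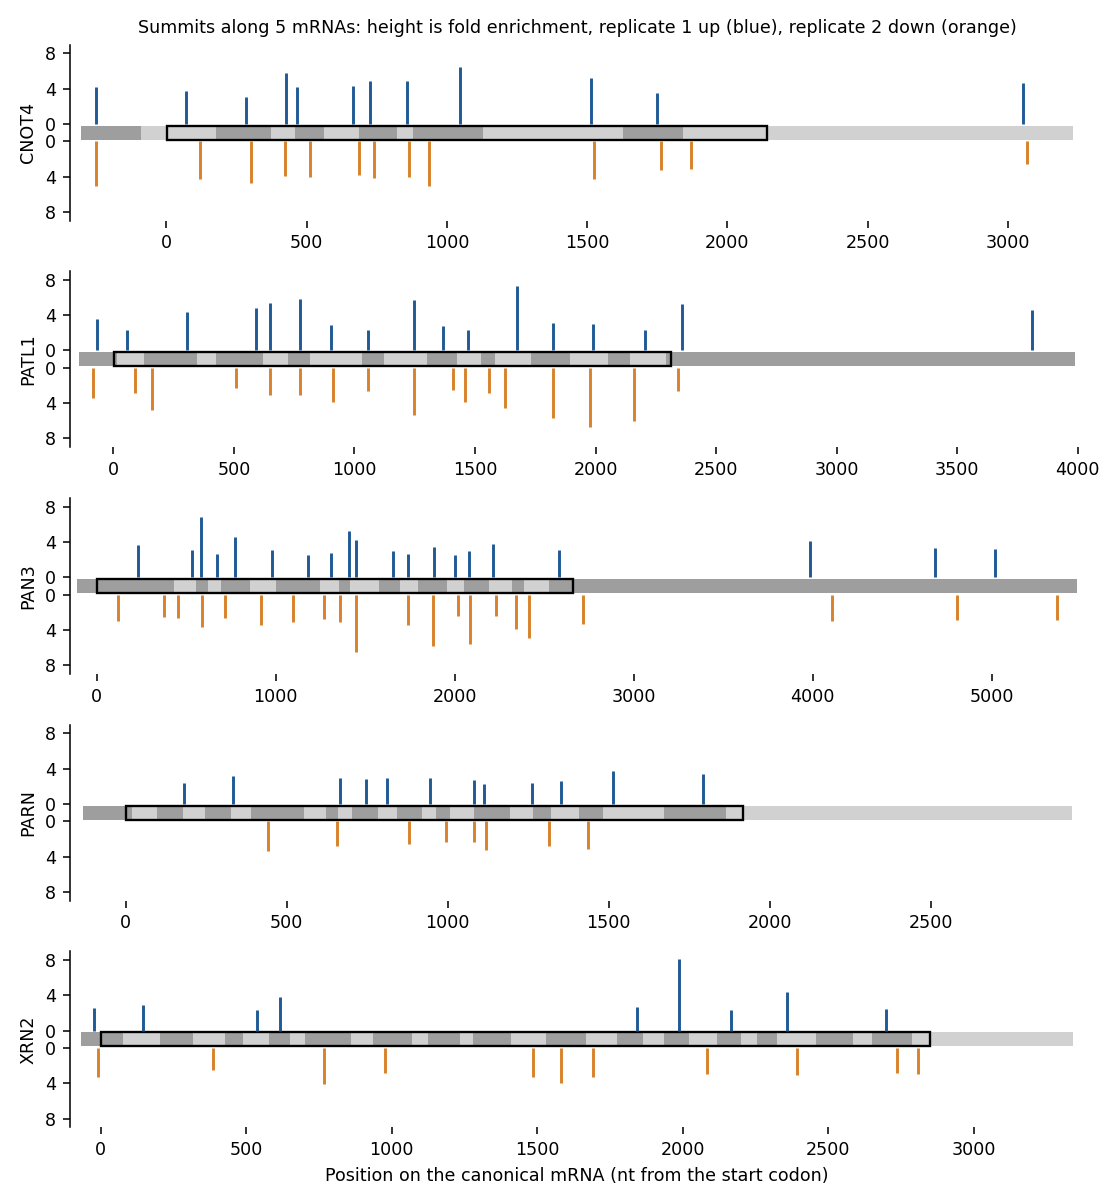
Summits along the canonical mRNAs of CNOT4, PATL1, PAN3, PARN and XRN2, with position in nt from the start codon on the horizontal axis and fold enrichment as line height, replicate 1 upward in blue and replicate 2 downward in orange. Grey blocks are alternate exons and the outlined box is the CDS, and the replicates share the exons of their summits in CNOT4 (12 of 12) far more than in PARN (2 of 24) and XRN2 (3 of 30).

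Of the 7 decapping genes, 5 had a peak in both replicates, against 28.1% of all protein-coding genes. The group held 37 and 43 peaks in total (1.17 ± 0.124 per kb, SD, n = 2). PATL1, a scaffold that links deadenylation with decapping, stood first. It had 17 peaks in each replicate, or 4.12 per kb, and 16 of its 19 exons held a summit in both. Its highest fold was 7.29 in replicate 1, at chr11:59649503-59649588 in exon 14 with a q of 5.53e-05. In replicate 2 the highest was 6.72, at chr11:59642858-59643055 in exon 16 with a q of 1.35e-05. The mean of these, 7.0, was the highest of all members and stood at percentile 98.4 of the 5523 protein-coding genes with a peak in both replicates. As in PAN3, the strongest exon of a replicate held a weaker peak in the other: the fold in exon 14 was 4.55 in replicate 2, and that in exon 16 was 3.02 in replicate 1. Peaks of q at most 0.05 numbered 7 and 5, and they overlapped in exon 3 and exon 10.

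DCP1A and DCP1B encode paralogous activators of the decapping enzyme, and both had peaks in most of their exons. DCP1A had 9 peaks in each replicate, with summits in 7 of 10 exons in both. DCP1B had 7 and 9 peaks, with summits in 7 of 9 exons in both, which is 3.94 ± 0.696 per kb (SD, n = 2) on a shorter mRNA. The strongest DCP1A peak had a fold of 6.35 in replicate 1 (chr3:53304174-53304299, exon 6, q of 3.73e-05), and the strongest of replicate 2 had a fold of 4.43 in exon 1. The summit in exon 1 was in codon 13 in replicate 1 and 17 nt from the start codon in replicate 2. The DCP1B peaks reached a q of 0.05 only in replicate 1, where there were 2.

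The catalytic subunit and the enhancers of decapping had fewer peaks than PATL1, DCP1A and DCP1B. DCP2, the decapping enzyme, had 3 peaks in replicate 1 and 4 in replicate 2 on an mRNA of 10110 nt, or 0.346 ± 0.0699 per kb (SD, n = 2). Its 3′ UTR of 8.71 kb held 0 summits in both. Its CDS had 2.38 and 3.17 summits per kb, against 2.15 and 2.17 over all protein-coding genes with a peak. LSM14A, a translational repressor found in P-bodies, had 1 and 3. EDC4, a scaffold of the decapping complex, had 0 and 1, with a fold of 2.25. EDC3 had no exonic peak in either replicate.

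Among the 5 exonucleases, 4 had a peak in both replicates, against 28.1% of all protein-coding genes. The group held 64 and 61 peaks in total (2.07 ± 0.0702 per kb, SD, n = 2). XRN1, the cytoplasmic enzyme that degrades decapped mRNA from the 5′ end, had 26 and 36 peaks and summits in 21 of its 41 exons in both. Its strongest peaks had a fold of 4.82 in replicate 1 and 4.43 in replicate 2, in different exons. XRN2, the nuclear counterpart, had 9 and 11 peaks, but its replicates shared few positions. Only 33.3% of its replicate 1 peaks and 27.3% of its replicate 2 peaks overlapped, and summits in both replicates were present in exons 1, 26 and 29 alone of 30. The XRN2 mRNA nevertheless held the highest fold of any member peak, 8.12 in replicate 1, at chr20:21354817-21354882 in exon 21 with a q of 7.44e-08. Replicate 2 had no peak overlapping it, and its highest fold in XRN2 was 4.11, in exon 9. Thus the mean of 6.11 ± 2.83 (SD, n = 2) for XRN2, at percentile 95.9, rested on a peak of replicate 1 alone.

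The nuclear exosome subunit EXOSC10 had 17 peaks in replicate 1 and 10 in replicate 2 on an mRNA of 2796 nt, or 6.08 and 3.58 per kb. The mean of 4.83 ± 1.77 per kb (SD, n = 2), at percentile 99.3 of the protein-coding genes that had any peak, was the highest of all members, but it rested on replicate 1. In replicate 2, DCP1B (4.43), CNOT4 (4.24), PATL1 (4.12) and PAN3 (3.76) had more peaks per kb. The EXOSC10 mRNA is nearly all CDS (2655 nt, with a 3′ UTR of 103 nt), and per kb of CDS it did not rank first. In replicate 1 it was below AGO1 (6.61) and AGO2 (6.60) alone. In replicate 2 it had 3.77 summits per kb of CDS, fewer than, for example, PATL1 (6.49), PAN3 (6.39), CNOT6 (5.98) and AGO2 (5.82). How far UTR length sets the order per kb of mRNA was not tested. A summit was present in 9 of the 25 EXOSC10 exons in both replicates. Of its peaks, 3 in each replicate also lay in an exon of an antisense long noncoding gene. DIS3, the catalytic exosome subunit, had 11 and 4 peaks. Its strongest peak in replicate 1 (fold of 4.69, q of 0.0108) lay 6067 nt past the stop codon, where an exon of BORA overlaps, and replicate 2 had no peak overlapping it. Of the DIS3 summits, 7 in replicate 1 and 2 in replicate 2 lay past the stop codon, in its 3′ UTR. DIS3L2, a cytoplasmic exonuclease that acts on uridylated RNA, had 1 and 0 peaks.

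Nonsense-mediated decay was the group with the fewest peaks per length, 1.03 ± 0.0205 per kb (SD, n = 2). This was still more than the 0.578 and 0.557 per kb over all protein-coding genes. Of its 8 members, 4 had a peak in both replicates and 3 had none, against 28.1% and 63.8% of all protein-coding genes. The helicase UPF1, the central factor of the pathway, had no exonic peak in either replicate, and neither had the paralogues UPF3A and UPF3B, which connect it with the exon junction complex. UPF2, the adaptor that binds UPF1, had 9 and 12 peaks and summits in 7 of its 22 exons in both, but no peak of q at most 0.05. The endonuclease SMG6 had 13 and 14 peaks, 1 of q at most 0.05 in each replicate, and summits in 9 of 19 exons in both. Of the SMG6 peaks, 2 in each replicate also lay in an exon of HIC1. Its relative SMG5, which recruits decay factors, had 7 and 3 peaks and none of q at most 0.05. SMG9, which with SMG8 regulates the kinase that acts on UPF1, had 6 peaks in each replicate. The highest SMG9 fold was 6.43 in replicate 2 (chr19:43734411-43734472, exon 10, q of 0.00017) and 4.31 in replicate 1. SMG8 had 1 peak in replicate 1 and 0 in replicate 2.

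Genes without a peak in a replicate occurred in every role except silencing, and nonsense-mediated decay held 3 of those without one in either. No peak in either replicate was found for 4 members (9.76%, against 63.8% of all protein-coding genes), UPF1, UPF3A, UPF3B and EDC3. A peak in exactly 1 replicate was found for 6 (14.6%, against 8.13%), and these were CNOT7, CNOT8, SMG8, DIS3L2, PAN2 and EDC4. None of these 6 had more than 2 peaks.

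The silencing group had peaks in both replicates for 7 of 7 members, against 28.1% of all protein-coding genes. A q of at most 0.05 in both was reached by 5 of them, against 4.98%. Together the 7 members held 162 peaks in replicate 1 and 156 in replicate 2, or 1.66 ± 0.0444 per kb (SD, n = 2). DICER1, the nuclease that releases miRNAs from their hairpins, had 24 and 22 peaks, with highest folds of 4.45 and 5.19. A summit was found in 13 of its 27 exons in both replicates.

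The Argonautes are the proteins that hold the miRNA. AGO1 had 30 and 21 peaks, AGO2 26 and 25, and AGO3 12 and 16. The highest folds of AGO1 were 7.41 and 5.74, the former at the exon 8 site printed above and the latter in exon 10, with a mean at percentile 97.3. Those of AGO2 were 4.54 in exon 15 and 6.33 in exon 16. Those of AGO3 were 5.16 and 3.81 in the same exon 9, where an antisense long noncoding gene also has an exon. In replicate 1, 60% of the AGO1 peaks overlapped a replicate 2 peak, and in replicate 2, 95.2% overlapped a replicate 1 peak. For AGO2 the shares were 92.3% and 92%, and for AGO3 75% and 56.2%. Summits were in 12 of 19 exons of AGO1, 15 of 19 of AGO2 and 9 of 19 of AGO3 in both replicates.

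The TNRC6 proteins bridge Argonautes and deadenylases. TNRC6B had 33 and 37 peaks, the most of all members by the mean, followed by TNRC6A with 22 and 20 and TNRC6C with 15 in each. TNRC6A had 7 peaks of q at most 0.05 in replicate 1 and 4 in replicate 2, which overlapped at 4 places. These lay in exons 14, 15 and 17 and in exon 25 at the end of the CDS, with folds between 3.91 and 5.15. TNRC6B had 2 and 5 such peaks, which overlapped only at exon 8. TNRC6C had 1 and 0. The strongest TNRC6C peak was in exon 7 in both replicates, with summits on adjacent bases, but its fold was 4.04 in replicate 1 and 2.52 in replicate 2.

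Summit densities of these 2 families were taken up to the stop codon for the CDS and from it for the 3′ UTR. In the CDS, AGO1 had 6.61 and 4.28 summits per kb, AGO2 6.60 and 5.82, and AGO3 4.26 and 5.04. TNRC6A had 3.74 and 3.23, TNRC6B 3.46 and 3.64, and TNRC6C 2.41 in both. In the 3′ UTR, AGO1 had 12 and 10 summits, AGO2 9 in each, and AGO3 1 and 2, although the 3′ UTR of AGO3 is the longest of them at 16.8 kb. This is 1.10 and 0.915 per kb for AGO1, 0.757 in both for AGO2, and 0.0597 and 0.119 for AGO3. TNRC6B had 14 and 12 summits on a 3′ UTR of 12.6 kb, TNRC6A had 0 in each and TNRC6C had 1 and 0. The replicates kept the order of AGO1, AGO2 and AGO3 in the 3′ UTR. In the CDS the ranges of AGO1 and AGO3 overlapped, as did those of TNRC6A and TNRC6B. The transcript used for each gene is the canonical one, and whether OE-19 cells use the full 3′ UTR was not tested.

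**Figure D3:**
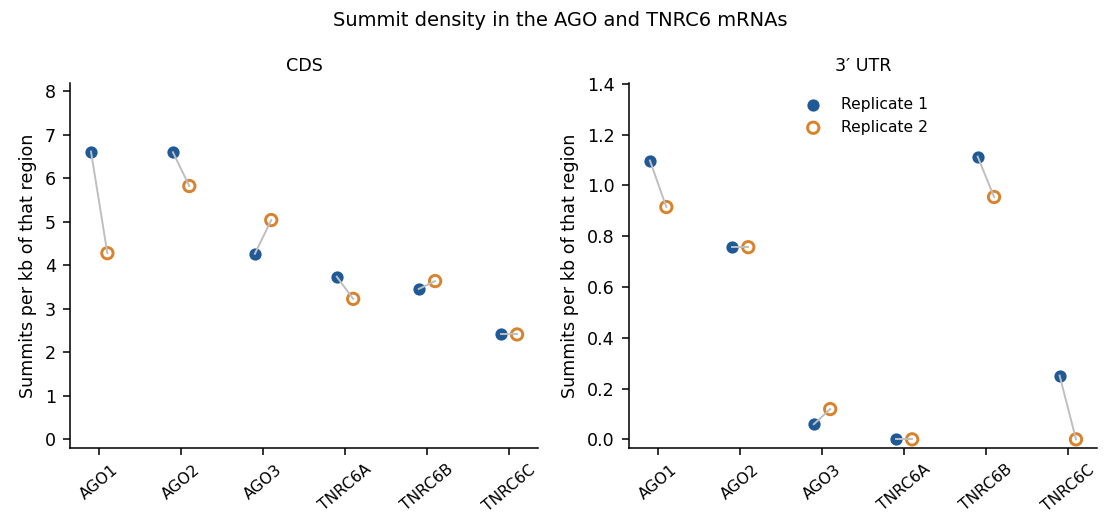
Summits per kb of the CDS (left) and of the 3′ UTR (right) for the AGO and TNRC6 mRNAs, with replicate 1 as filled and replicate 2 as open circles, and different vertical scales. In the 3′ UTR, AGO1, AGO2 and TNRC6B lie between 0.757 and 1.11 summits per kb, and AGO3, TNRC6A and TNRC6C between 0 and 0.251.

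Most member summits lay in the CDS. With the 200 nt before and after the stop codon set apart as a window, 76.4% of replicate 1 and 79.0% of replicate 2 summits on the canonical mRNA were in the CDS (77.7% ± 1.78, SD, n = 2), compared with 70.7% and 72.4% over all protein-coding genes. The 3′ UTR outside that window held 14.8% and 11.9% (13.3% ± 2.05, SD, n = 2), compared with 16.8% and 15.6%. The stop codon window held 6.93% and 6.44%, compared with 8.65% and 8.39%, and the 5′ UTR 1.85% and 2.72%, compared with 3.78% and 3.66%. Per length, members with a peak had 3.57 and 3.39 summits per kb of CDS and 0.558 and 0.468 per kb of 3′ UTR. The corresponding densities over all protein-coding genes with a peak were 2.15 and 2.17 in the CDS and 0.480 and 0.443 in the 3′ UTR. For the CDS share, the 3′ UTR share and the CDS density, both member values lay outside the 2 replicate values of all genes. Those 2 values do not measure how sets of genes differ. In a list of 77 other genes of these pathways, the CDS held 79.7% and 79.9% of summits and the 3′ UTR 10.3% and 9.92%. Thus these shares were not particular to the members, whereas the CDS density of those genes, 2.77 and 2.60 per kb, was lower than that of the members. With the CDS cut into 3 equal parts, the first held 26.1% and 24.8% of the CDS summits, the middle 35.8% and 34.9% and the last 38.1% and 40.3%. Over all protein-coding genes these parts held 28.2% and 28.6%, 35.2% in both, and 36.6% and 36.2%. In the 77 other genes the first held 24.6% in both and the last 40.2% and 38.8%.

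Among the member peaks, 56 in replicate 1 and 40 in replicate 2 had q at most 0.05, which is 12.8% and 9.73% of them, compared with 10.2% and 7.82% of the peaks of all protein-coding genes. Of these, 85.7% and 90% were in the CDS outside the stop codon window, close to the 84.4% and 87.4% over all protein-coding genes. In the 3′ UTR there were 3 such peaks, all in replicate 1, in CNOT4 (915 nt past the stop codon), DIS3 (6067 nt) and TNRC6B (2312 nt). In the 5′ UTR, CNOT4 had 1 in each replicate and AGO2 had 1 in replicate 2. CNOT6, PATL1, TNRC6A and DICER1 had such a peak in the stop codon window, and TNRC6A had it in both replicates, 56 and 63 nt before the stop codon.

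Member summits were spread over many short exons. In the 31 members with a peak in both replicates, 51.1% of the 364 exons under 150 nt held a summit in replicate 1, 49.5% in replicate 2 and 33.8% in both. Over all protein-coding genes with a peak in both, the shares were 31.9%, 32.3% and 18.6%. In exons from 150 nt to under 300 nt, the member shares were 72.2%, 67.4% and 57.2%, compared with 49.8%, 48.5% and 35.1%. No member exon under 150 nt held more than 1 summit. In exons of 1000 nt or more, 25 of 30 held a summit in replicate 1 and 26 in replicate 2, with 94 and 78 summits in all. Per kb, short exons had 4.97 and 4.81 summits, whereas the longest class had 0.697 and 0.578. The same contrast was present over all protein-coding genes with a peak in both, with 3.20 and 3.25 in short exons and 0.597 and 0.545 in the longest class. Each peak counts as 1 summit however wide it is, and the median width of member peaks was 113 and 111 nt. A density per kb therefore depends on exon length through this counting, and its part was not tested. The same counting applies to the densities of the CDS and the 3′ UTR. A summit in at least 70% of the exons in both replicates was found in 7 of the 34 members with 10 or more exons (3.49% of all protein-coding genes of that size). These were CNOT4, PATL1, CNOT6, PAN3, AGO2, TNRC6A and DCP1A. Of the member peaks, 39.0% in replicate 1 and 41.8% in replicate 2 ran past the edge of the exon that held the summit, against 34.2% and 33.3% over all protein-coding genes.

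**Figure D4:**
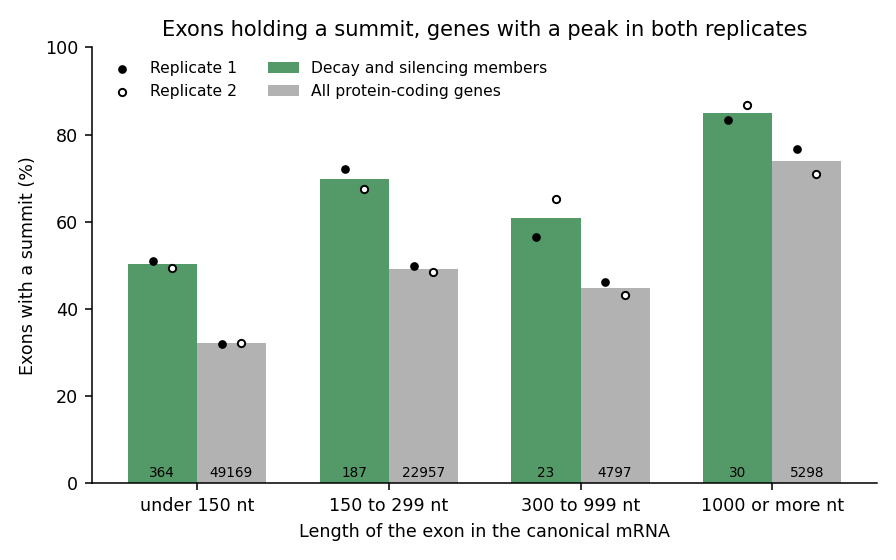
Share of canonical exons that hold a summit (vertical axis, %) by exon length, for the members (green) and all protein-coding genes (grey) with a peak in both replicates. Bars are the mean of 2 replicates, circles the replicates and the numbers at the base the exons in each class, and the member bar is the higher in all 4 classes, for example 51.1% and 49.5% against 31.9% and 32.3% under 150 nt.

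The sequence around member summits was compared with that around all mRNA summits. GGAC was present on the mRNA strand in 28.8% of 430 windows reaching 50 nt to either side in replicate 1 and 26.1% of 402 in replicate 2 (27.5% ± 1.92, SD, n = 2), compared with 31.9% and 32.0% of all such windows, so that both member shares were the lower. TGGAC, which contains GGAC, was present in 13.0% and 9.70%, compared with 12.9% and 13.0%. CACA was present in 35.6% and 38.1%, compared with 38.8% and 38.2%. The GC content was 47.6% and 47.8% against 49.1% and 48.7%. Only the mRNA strand was searched, and a match is no evidence of a binding site.

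The replicates shared most of the members with peaks but not the ranking of the peaks. Of the 37 members with a peak in either replicate, 31 had one in both, and of all such protein-coding genes 77.5% did. The number of peaks per member was highly correlated between replicates (Pearson's r = 0.943, Spearman's rho = 0.942, 41 members). Of the member peaks, 70.02% in replicate 1 and 75.7% in replicate 2 overlapped a peak of the other replicate (72.8% ± 3.99, SD, n = 2), compared with 61.0% and 64.8% over all protein-coding genes. In 317 overlapping pairs the summits were a median of 34 nt apart, and 62.1% were within 50 nt, compared with 32 nt and 60.3% for all protein-coding genes. The fold, however, was only weakly correlated across these pairs (r = 0.234 and rho = 0.240 of log2 fold), and across 26915 pairs of all protein-coding genes r was 0.306. The highest fold per member had an r of 0.551 and a rho of 0.560 over 31 members, lower than the r of 0.739 and rho of 0.726 over 5523 protein-coding genes. The strongest peak was at an overlapping position in both replicates in 4 of these 31, namely AGO3, CNOT4, CNOT9 and TNRC6C. No such share was computed over all protein-coding genes, which have fewer peaks each (a median of 4 against 10). The count is therefore no trait of the members. The points of the correlations share the libraries and the filter of the lists, which holds only values above a minimum.

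The median over members of the highest fold was 4.45 in replicate 1 and 4.32 in replicate 2 (4.39 ± 0.0905, SD, n = 2), compared with 3.48 and 3.37 over protein-coding genes with a peak. Across the 31 members the highest fold went with the number of peaks (r = 0.524, rho = 0.592). The median fold of all member peaks was 3.07 and 3.02, compared with 2.95 and 2.93. Ordered by the mean of the highest fold, the leading members were PATL1 (7.0 ± 0.406, SD, n = 2), PAN3 (6.67 ± 0.249), AGO1 (6.58 ± 1.17), XRN2 (6.11 ± 2.83) and CNOT4 (5.76 ± 1.03). Neighbours in this order did not differ beyond their spread.

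**Figure D5:**
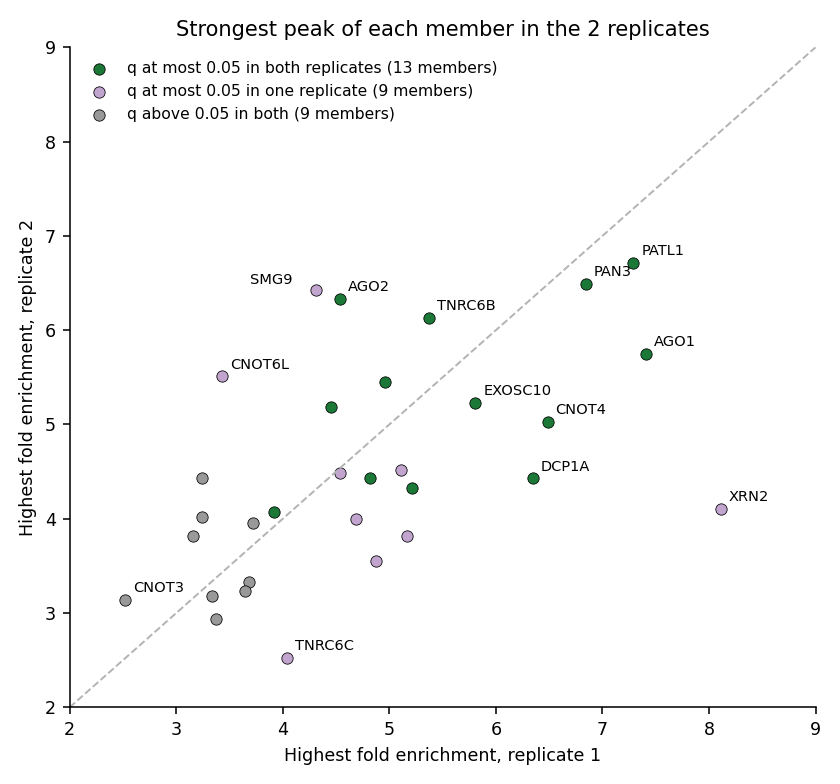
Highest fold enrichment of each of the 31 members with a peak in both replicates, replicate 1 on the horizontal and replicate 2 on the vertical axis, colored by whether a peak of q at most 0.05 was present, with equality as a dashed line. PATL1 (7.29 and 6.72) and PAN3 (6.85 and 6.49) lie high in both, whereas XRN2 (8.12 and 4.11) lies far from the line.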

How the data were processed

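The 41 members, their role groups and the other lists were chosen with earlier results of these data known. Per the labels, directional libraries were made from OE-19 cells. The study's methods state mapping to hg38 with Tophat2 and peak calling with MACS2 at default settings, whereas the submitters' processing notes list fastp, HISAT2 and MACS2. No deposited −log10 p was under 2.0003 (replicate 1) or 2.00226 (replicate 2), which matches a p limit of 0.01 and not the caller's default q limit of 0.05. The control library is not given in the sources used here. The deposited lists of the authors hold the fold enrichment (a linear ratio), the −log10 p-value, the −log10 q-value and a score, which was 10 times the −log10 p and was not used.

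Peaks were called per sample. Of the 44622 and 42723 peaks, 4360 and 3193 had q at most 0.05. Peaks on unplaced scaffolds (13 and 12) were left out. Coordinates are 1-based. A summit was assigned to each gene with a GENCODE 44 exon at it, on either strand, and positions were taken on the Ensembl canonical coding transcript. Peaks overlapping by at least 1 bp were counted as shared. Reads of paralogues may be split between them.

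All 41 members were named, and in depth the 5 with the highest mean fold, the most peaks and the most peaks per kb, those with overlapping peaks of q at most 0.05 and those without a peak in a replicate. Alternatives were 3 stricter limits, each replicate left out, and other overlaps, assignments, transcripts, windows, lengths and motifs. Some results on other genes of these pathways are not reported here. The scripts were tested on simulated data. The software was matplotlib 3.10.9, scipy 1.17.1, pandas 2.3.3 and numpy 2.4.6 under Python 3.11.15.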

Additional observations from a re-analysis of the deposited data

Results flagged for a closer look

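Besides the exonic peaks, a few peaks had their summit in an intron of a member, outside every GENCODE exon. There were 9 in replicate 1 and 10 in replicate 2, in 7 members each time. None had a q of at most 0.05, and the highest fold was 3.69 in replicate 1 and 3.38 in replicate 2. Of the 9, 5 overlapped a peak of the other replicate, as did 4 of the 10. In AGO1 and CNOT4 both replicates had such a peak at an overlapping position, with folds of 3.37 and 2.85 in AGO1 and of 2.58 and 2.77 in CNOT4. There is no control list to set these against.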

How the results depend on the processing

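Of 59 values recomputed under alternatives with both replicates, 27 moved by less than the spread between replicates or 1.5 times a count, and 32 moved by more. Most of the latter came from stricter limits on peaks, given here in the order q at most 0.05, p at most 1e-05 and fold of at least 5. Members with a peak in both replicates fell from 31 to 13, 17 and 6, member peaks from 424 to 48, 75 and 22.5, and peaks per kb from 1.64 to 0.186, 0.290 and 0.0870. The shared percentage went from 72.8 to 32.1, 32.2 and 8.89, the median highest fold from 4.39 to 5.29, 5.11 and 6.05, the CDS percentage from 77.7 to 87.9, 87.4 and 93.3, the 3′ UTR percentage from 13.3 to 2.68, 3.84 and 0, and the GGAC percentage from 27.5 to 20.2, 23.9 and 24.4. A fold of at least 5 left 6 of the 13 members with q at most 0.05 in both. A reciprocal overlap of 50% gave 49.1% shared, summits in exons of exactly 1 gene a median highest fold of 4.18, a stop codon window of 100 nt a CDS percentage of 80.0, shared peaks only 1.19 per kb, the union of exons as length 1.16 per kb, windows of 100 nt to either side 51.2% with GGAC, and TGGAC 11.4%.

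With either replicate left out, each value is that of the remaining replicate, as given above, and the member counts no longer require both replicates. The ranges were 33 to 35 members with a peak, 15 to 20 with q at most 0.05, 411 to 437 peaks and 70.02% to 75.7% shared. This last percentage still uses the peaks of the replicate left out. The median highest fold was 4.32 to 4.45, with 76.4% to 79.0% in the CDS and 11.9% to 14.8% in the 3′ UTR. There were 1.59 to 1.69 peaks per kb and 26.1% to 28.8% of windows with GGAC. No paired analysis was possible because the input samples have no peak list used here and no result comes from a test. Read depth is unknown, so no value carries an interval for counting error.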

Other observations

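Other genes of the same pathways were taken from a list of 77, chosen with earlier results known. Of these, 41 (53.2%) had an exonic peak in both replicates, 10 in exactly 1 and 26 in none, whereas 28.1%, 8.13% and 63.8% of all protein-coding genes did. A q of at most 0.05 in both replicates was reached by 9 (against 4.98% of all protein-coding genes), among them PUM2, RC3H1, RC3H2, EXOSC8, AGO4, DROSHA, XPO5 and GIGYF2. By role, and against the same 28.1%, a peak in both replicates was found for 9 of 11 further silencing genes, 12 of 18 deadenylation genes and their adaptors, 11 of 22 exosome genes and cofactors, 6 of 13 nonsense-mediated decay genes and 3 of 13 decapping genes.

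Among those with high folds, the Roquin genes RC3H2 and RC3H1, whose proteins bind stem-loops of mRNAs and recruit deadenylases, had highest folds of 7.18 in replicate 1 and 6.38 in replicate 2 and of 8.30 and 5.06. EXOSC8, a subunit of the exosome ring, had 7.29 and 6.23 with only 5 and 3 peaks on an mRNA of 1166 nt. GIGYF2, a translational repressor, had 6.37 and 5.89. The kinase SMG1, which acts on UPF1, held more peaks than any of the 41 members, 55 and 49, whereas UPF1 itself had none. The decapping helicase DDX6 had 1 and 0 peaks.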
